A study of Sus scrofa with 18 samples.

Results

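The MHC class II genes of the pig, which carry the prefix SLA, were examined together with CIITA and CD74 in the histone mark data of day 15 myometrium. The set held 10 listed genes: SLA-DRA, SLA-DRB1, SLA-DQA1, SLA-DQB1, SLA-DMA, SLA-DMB, SLA-DOA, SLA-DOB, CD74 and CIITA. All 10 had a placed protein-coding model in RefSeq on Sscrofa11.1, out of 28210 RefSeq genes on named chromosomes. The 8 SLA genes lay on chromosome 7 between positions 24825037 and 25182665, while CIITA lay on chromosome 3 and CD74 on chromosome 2. A peak was assigned to a gene when it overlapped the stretch from 3 kb before to 3 kb after the gene model.

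MHC class II molecules are pairs of an alpha and a beta chain that show peptides from taken-up proteins to CD4+ T cells. The DR and DQ molecules present the peptide, the DM molecule loads it, the DO molecule restrains DM, and the invariant chain CD74 guards the empty groove until loading. Transcription of these genes depends on CIITA, a coactivator that does not bind DNA itself and that is recruited by the RFX, NF-Y and CREB factors at their promoters. CIITA is switched on by interferon gamma in many cell types and is active without it in professional antigen-presenting cells.

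CUT&Tag was carried out on the mesometrial side of the uterus of Yorkshire gilts for H3K4me3, a mark of active promoters, and for H3K27ac, a mark of active promoters and enhancers, with IgG as control. The 3 sample types were circular muscle on day 15 of pregnancy (GD15M_CM), longitudinal muscle on day 15 of pregnancy (GD15M_LM) and circular muscle on day 15 of the estrous cycle (CD15M_CM). The GD15M gilts had been mated naturally and the CD15M gilts had not been mated, and no engineered allele or administered agent is named for any group. Each type had 2 gilts per mark, 18 libraries in all with IgG, and the authors pooled both gilts before calling peaks, so there is 1 list per mark and type.

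The values therefore have no replicate spread and no test across gilts, and every difference given here is a difference between 2 pooled lists. In the order GD15M_CM, GD15M_LM and CD15M_CM, the H3K4me3 lists held 33599, 31910 and 36331 peaks and the H3K27ac lists 79877, 57010 and 82037. Read depth per gilt is not recorded there. Fold enrichment, the ratio of the mark to the IgG control from MACS2, gives the height of a peak. Its median differed between lists, at 4.86, 5.66 and 4.64 for H3K4me3 in the same order and at 3.49, 3.79 and 3.53 for H3K27ac. For this reason each peak was also ranked within its own list. A percentile is the share of peaks of the list with no higher fold enrichment, each gene was given the percentile of its strongest peak, and a gene without a peak was set at 0. A gene was called higher or lower when 2 lists differed by at least 10 percentile points.

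H3K4me3 was found near 9 of the 10 genes in each of the 3 types. Over all RefSeq genes, 60.0% had an H3K4me3 peak within 3 kb in GD15M_CM, as had 61.0% in GD15M_LM and 61.7% in CD15M_CM. All RefSeq genes include noncoding RNA genes and pseudogenes, whereas the 10 genes are protein-coding, so these shares are not a like baseline. The percentile of the strongest peak was highest in GD15M_CM for all 9 genes, while the lowest value was in CD15M_CM for 5 and in GD15M_LM for 4. In GD15M_CM the median over the 9 genes was 81.4, close to the median of 80.9 over all genes with a peak. In GD15M_LM it was 66.5 against 79.4, and in CD15M_CM it was 64.1 against 81.8. The class II genes thus ranked near the median marked gene in pregnant circular muscle and below it in the other types.

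**Figure D1:**
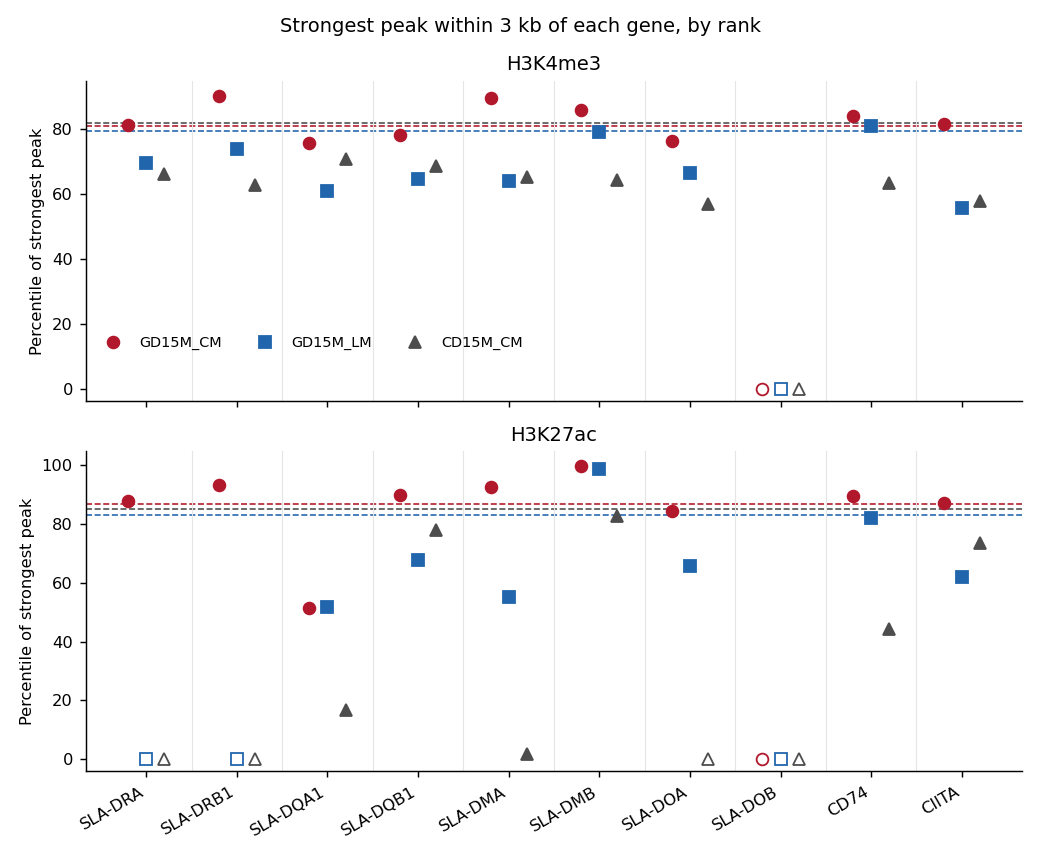
Percentile (0 to 100) of the strongest H3K4me3 peak (top) and H3K27ac peak (bottom) within 3 kb of each gene in GD15M_CM, GD15M_LM and CD15M_CM; open symbols at 0 mark genes with no peak, and dashed lines give the median over all genes with a peak in that list. The GD15M_CM circle is the highest H3K4me3 symbol for 9 genes, and SLA-DOB is empty throughout.

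The classical chains, which present the peptide, are given first. SLA-DRA, the alpha chain of the DR molecule (chromosome 7, 24825037 to 24830650), had an H3K4me3 fold enrichment of 16.0 in GD15M_CM, 14.3 in GD15M_LM and 9.82 in CD15M_CM, at percentiles 81.1, 69.3 and 65.9. SLA-DRB1, the beta chain of DR (24901386 to 24914016), had 20.4, 16.5 and 7.71, at percentiles 90.1, 73.7 and 62.6. SLA-DRB1 held the highest H3K4me3 rank of the set in GD15M_CM and also the largest gap to CD15M_CM, at 27.6 points. Pigs carry several closely related DRB copies, and the authors removed reads with a mapping quality below 25, so reads that fit more than 1 copy may be missing here.

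The DQ chains showed a smaller gap between pregnancy and cycle. SLA-DQA1, the DQ alpha chain (24953472 to 24959313), had an H3K4me3 fold enrichment of 13.6 in GD15M_CM, 9.55 in GD15M_LM and 13.0 in CD15M_CM, at percentiles 75.6, 60.8 and 70.6. SLA-DQB1, the DQ beta chain (24969034 to 24977238), had 14.8, 11.7 and 11.6, at percentiles 78.2, 64.6 and 68.5. Both lay less than 10 points above CD15M_CM, by 5.04 for SLA-DQA1 and by 9.69 for SLA-DQB1, whereas their gaps to GD15M_LM were 14.9 and 13.6 points. In these DQ genes the longitudinal muscle, not the cyclic circular muscle, had the lowest rank.

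The peptide editors act on loading. SLA-DMA, the DM alpha chain (25133494 to 25137928), had an H3K4me3 fold enrichment of 20.0 in GD15M_CM, 11.2 in GD15M_LM and 9.38 in CD15M_CM, at percentiles 89.4, 63.8 and 65.2. SLA-DMB, the DM beta chain (25119278 to 25125089), had 18.1, 19.2 and 8.67, at percentiles 85.7, 79.0 and 64.1. The DM chains therefore differed from each other in longitudinal muscle: SLA-DMA ranked close to the cyclic sample there, and SLA-DMB was 6.76 points below pregnant circular muscle with a larger fold enrichment. SLA-DOA, the DO alpha chain (25178866 to 25182665), had 13.8, 12.7 and 5.60, at percentiles 76.1, 66.5 and 56.9.

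For SLA-DMB the study also built a promoter reporter, and its primers are shown because SLA-DMB is the gene of this set whose promoter the study cloned. They are written 5′ to 3′ in lower case, and they were not placed on the genome here.
SLA-DMB reporter forward primer: aagtatggcacagaagtggc
SLA-DMB reporter reverse primer: gcctagggcaggatgagattt
The primers have 20 and 21 bases.

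SLA-DOB, the DO beta chain (25030435 to 25038196), had no peak within 3 kb in any of the 6 lists. In the order GD15M_CM, GD15M_LM and CD15M_CM, the nearest H3K4me3 peak ended 38296, 38462 and 38379 bp below the gene or began 15054, 7737 and 14832 bp above it. The nearest H3K27ac peaks were 27233, 27143 and 27163 bp below and 17424, 7890 and 3590 bp above. SLA-DOA and SLA-DOB encode the chains of 1 heterodimer, yet only SLA-DOA carried a marked window in these lists.

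CD74, the invariant chain (chromosome 2, 151402210 to 151409924), had an H3K4me3 fold enrichment of 17.2 in GD15M_CM, 20.2 in GD15M_LM and 8.21 in CD15M_CM, at percentiles 83.9, 80.8 and 63.4. Like SLA-DMB, it was near its pregnant circular rank in longitudinal muscle and 20.5 points lower in the cyclic sample. CIITA, the transactivator (chromosome 3, 32171706 to 32230775), had 16.1, 7.09 and 5.80, at percentiles 81.4, 55.5 and 57.8. CIITA showed the widest gap of the set between the pregnant layers, at 26.0 points, and a gap of similar size to CD15M_CM, at 23.7 points.

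**Figure D2:**
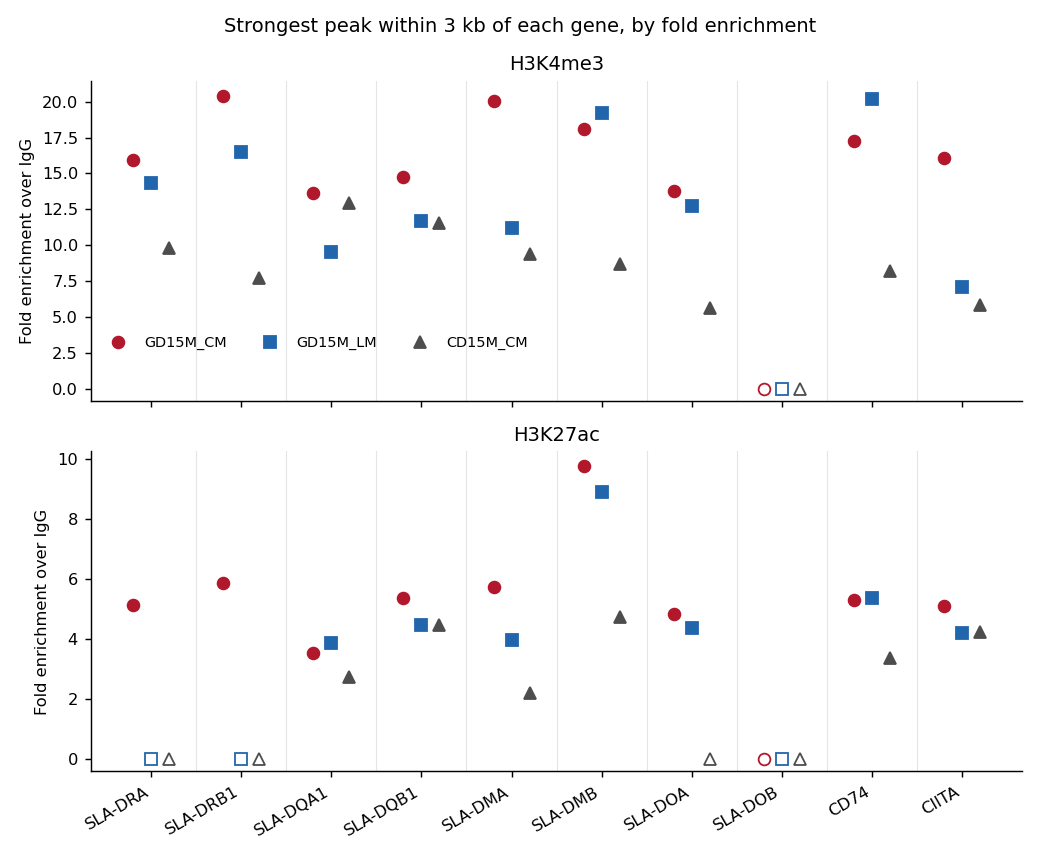
Fold enrichment over IgG of the strongest H3K4me3 peak (top) and H3K27ac peak (bottom) within 3 kb of each gene in the 3 sample types; open symbols at 0 mark genes with no peak. The H3K4me3 values in CD15M_CM run from 5.60 to 13.0, and those in GD15M_CM from 13.6 to 20.4; for SLA-DMB and CD74 the GD15M_LM square lies above the GD15M_CM circle.

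Between pregnant and cyclic circular muscle, the H3K4me3 difference asks which promoters differ with pregnancy in the same layer. Of the 9 genes with a peak, 7 ranked at least 10 points higher in GD15M_CM and 0 ranked lower. Over all genes with a peak in either list, 12.4% were higher and 23.9% were lower by the same rule. The 7 were SLA-DRA, SLA-DRB1, SLA-DMA, SLA-DMB, SLA-DOA, CD74 and CIITA. The differences of the 9 genes ran from 5.04 to 27.6 points, with a median of 20.5, beside a median of -2.13 over all genes. On the fold enrichment itself the median ratio of GD15M_CM to CD15M_CM was 2.10 over the 9 genes, all above 1, and 0.796 over all genes with a peak in both lists.

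Between the pregnant layers, 6 of the 9 genes ranked at least 10 points higher for H3K4me3 in GD15M_CM than in GD15M_LM and 0 ranked lower. Over all genes, 20.9% were higher and 20.2% lower. SLA-DMB, SLA-DOA and CD74 lay within 10 points, and the range of the 9 was 3.09 to 26.0. All 4 classical chains were among the 6, as against 1 of the 4 peptide editors, SLA-DMA. The median difference was 13.6 points, beside 0.40 over all genes. The fold enrichment was higher in GD15M_CM for 7 of the 9, with a median ratio of 1.24 beside 0.806 over all genes, and the exceptions were SLA-DMB and CD74. With the −log10 p of a peak as the basis of its rank, 2 genes passed the 10 points.

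H3K27ac varied more. A peak was found near 9 of the 10 genes in GD15M_CM, near 7 in GD15M_LM and near 6 in CD15M_CM. Over all RefSeq genes, with noncoding RNA genes and pseudogenes included, the shares were 62.9%, 61.3% and 64.9%. The genes with no H3K27ac peak were SLA-DOB in each type, SLA-DRA and SLA-DRB1 in GD15M_LM and CD15M_CM, and SLA-DOA in CD15M_CM. With SLA-DOB aside, the strongest percentile was in GD15M_CM for 8 of 9 genes, and for SLA-DQA1 GD15M_CM and GD15M_LM differed by -0.22 points.

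At the DR chains H3K27ac was seen in 1 type. SLA-DRA had an H3K27ac fold enrichment of 5.15 in GD15M_CM (percentile 88.0) and no peak in GD15M_LM or CD15M_CM. SLA-DRB1 had 5.89 (percentile 93.4) and again no peak in the others. Since a list holds only what passed the peak caller's threshold, a missing peak says that the signal was below it and not that the mark was absent. SLA-DQA1 had 3.53 in GD15M_CM, 3.86 in GD15M_LM and 2.73 in CD15M_CM, at percentiles 51.5, 51.7 and 16.7. SLA-DQB1 had 5.39, 4.47 and 4.47, at percentiles 90.1, 67.9 and 78.0. DR and DQ thus differed in called peaks: both DQ chains kept an H3K27ac peak in every type. The SLA-DQA1 peak in CD15M_CM was faint, at 232 bp and a −log10 p of 3.56. With a −log10 p of at least 10 and a fold enrichment of at least 5 required, 0 genes of the set kept one in CD15M_CM. The contrast of DR and DQ there depends on the threshold.

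Among the editors, SLA-DMA had an H3K27ac fold enrichment of 5.74 in GD15M_CM, 3.98 in GD15M_LM and 2.21 in CD15M_CM, at percentiles 92.5, 55.3 and 1.60. SLA-DMB had 9.78, 8.92 and 4.74, at percentiles 99.8, 98.7 and 82.7. SLA-DMB was the highest of the set for this mark in each type. SLA-DOA had 4.84 in GD15M_CM and 4.38 in GD15M_LM, at percentiles 84.5 and 65.9, and no peak in CD15M_CM. CD74 had 5.32, 5.39 and 3.37, at percentiles 89.6, 82.1 and 44.3. CIITA had 5.10, 4.21 and 4.25, at percentiles 87.4, 61.8 and 73.5, although these values come from different sites in the gene.

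Against CD15M_CM, all 9 genes with an H3K27ac peak were at least 10 points higher in GD15M_CM and 0 lower, where 25.5% of all genes were higher and 27.4% lower. The differences ran from 12.1 to 93.4 points, with a median of 45.3 beside -0.15 over all genes. Larger differences in this mark were not particular to these genes, since for H3K4me3 fewer of all genes passed the rule, 12.4% higher and 23.9% lower. The largest values came from genes whose peak was missing or faint in the cyclic list. For the 6 genes with a peak in both lists, the median ratio of fold enrichment was 1.44, beside 1.01 over all genes. Between GD15M_CM and CD15M_CM the paper reported far fewer differential regions for H3K27ac than for H3K4me3. It found 0 differential H3K27ac peaks within 3 kb of the start of its differentially expressed genes. The H3K27ac differences given here are untested and do not show a change that the paper's test detected. Restricting every list to peaks with a −log10 p of at least 10 and a fold enrichment of at least 5 left 5 genes called higher, with 0 of the 10 genes holding an H3K27ac peak in CD15M_CM.

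Against GD15M_LM, 6 of 9 genes were higher for H3K27ac in GD15M_CM and 0 lower, where 33.8% of all genes were higher and 22.5% lower. SLA-DMB, SLA-DQA1 and CD74 were within 10 points, at 1.07, -0.22 and 7.47. The median difference was 22.1 points, beside 2.30 over all genes. Under the stricter peak threshold 3 genes were called. The median ratio of fold enrichment over the 7 genes with a peak in both lists was 1.11, beside 0.926 over all genes.

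**Figure D3:**
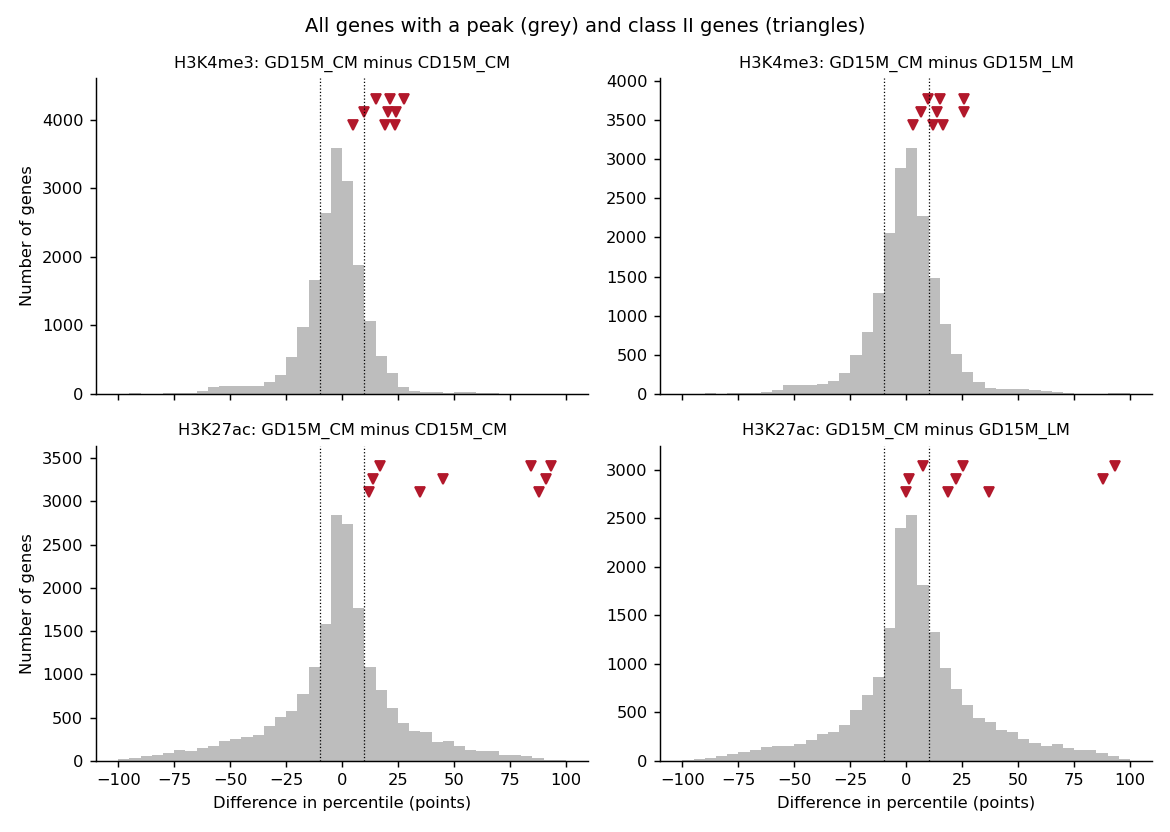
Difference in percentile (points) between GD15M_CM and CD15M_CM (left) and between GD15M_CM and GD15M_LM (right) for H3K4me3 (top) and H3K27ac (bottom); grey bars count all genes with a peak in either list, triangles are the 9 class II genes with a peak, stacked only so as not to overlap, and dotted lines mark 10 points. No triangle lies left of the lower line in any panel.

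The strongest H3K4me3 peak of each gene lay at an overlapping site in every list. RefSeq positions were available here without strand, so the ends of a gene are named by coordinate. The strongest H3K4me3 peak covered the lower-coordinate end of SLA-DRA and SLA-DQA1 and the higher-coordinate end of SLA-DRB1, SLA-DQB1, SLA-DMA, SLA-DMB, SLA-DOA and CD74, in each of the 3 types. For all 9 genes, the strongest site of each list was overlapped by a peak in both other lists. The H3K4me3 differences above therefore compare peaks at shared sites. They are not differences in height alone. At SLA-DMB and CD74 the rank was higher in GD15M_CM than in GD15M_LM, but the fold enrichment was lower. Length could differ as well, as at SLA-DMA with 4052 bp in GD15M_CM and 2529 bp in CD15M_CM. Width did not follow height between the pregnant layers. The median length of the strongest H3K4me3 peaks came to 2535 bp in GD15M_CM, 2203 bp in CD15M_CM and 2922 bp in GD15M_LM.

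CIITA stood apart in position. Its gene model spans 59070 bp, and its strongest H3K4me3 peak touched neither end. In GD15M_CM that peak ran from 32216716 to 32221023 on chromosome 3, which is 45010 to 49317 bp from the lower-coordinate end, and it was 4308 bp long. The GD15M_LM peak was 4591 bp long and the CD15M_CM peak 2922 bp. CIITA is known to use several promoters in different cell types, and which of them this site belongs to was not tested.

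At the same internal CIITA site, H3K27ac had a fold enrichment of 5.10 in GD15M_CM, 2.65 in GD15M_LM (percentile 8.43) and no peak in CD15M_CM. In the last 2 types the strongest H3K27ac peak of the gene lay elsewhere, centred 3331 bp and 3382 bp from the lower-coordinate end. The DEXI gene model overlaps that end of CIITA and stops at 32173024, so both peaks also lie within 3 kb of DEXI. For H3K27ac the CIITA window held 10 peaks that covered 5778 bp in GD15M_CM, 3 that covered 1471 bp in GD15M_LM and 2 that covered 856 bp in CD15M_CM. In each type some of these peaks lie within 3 kb of DEXI too and cannot be assigned to CIITA alone. At the internal site the H3K27ac gap between types was thus wider than in the gene-wide values.

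**Figure D4:**
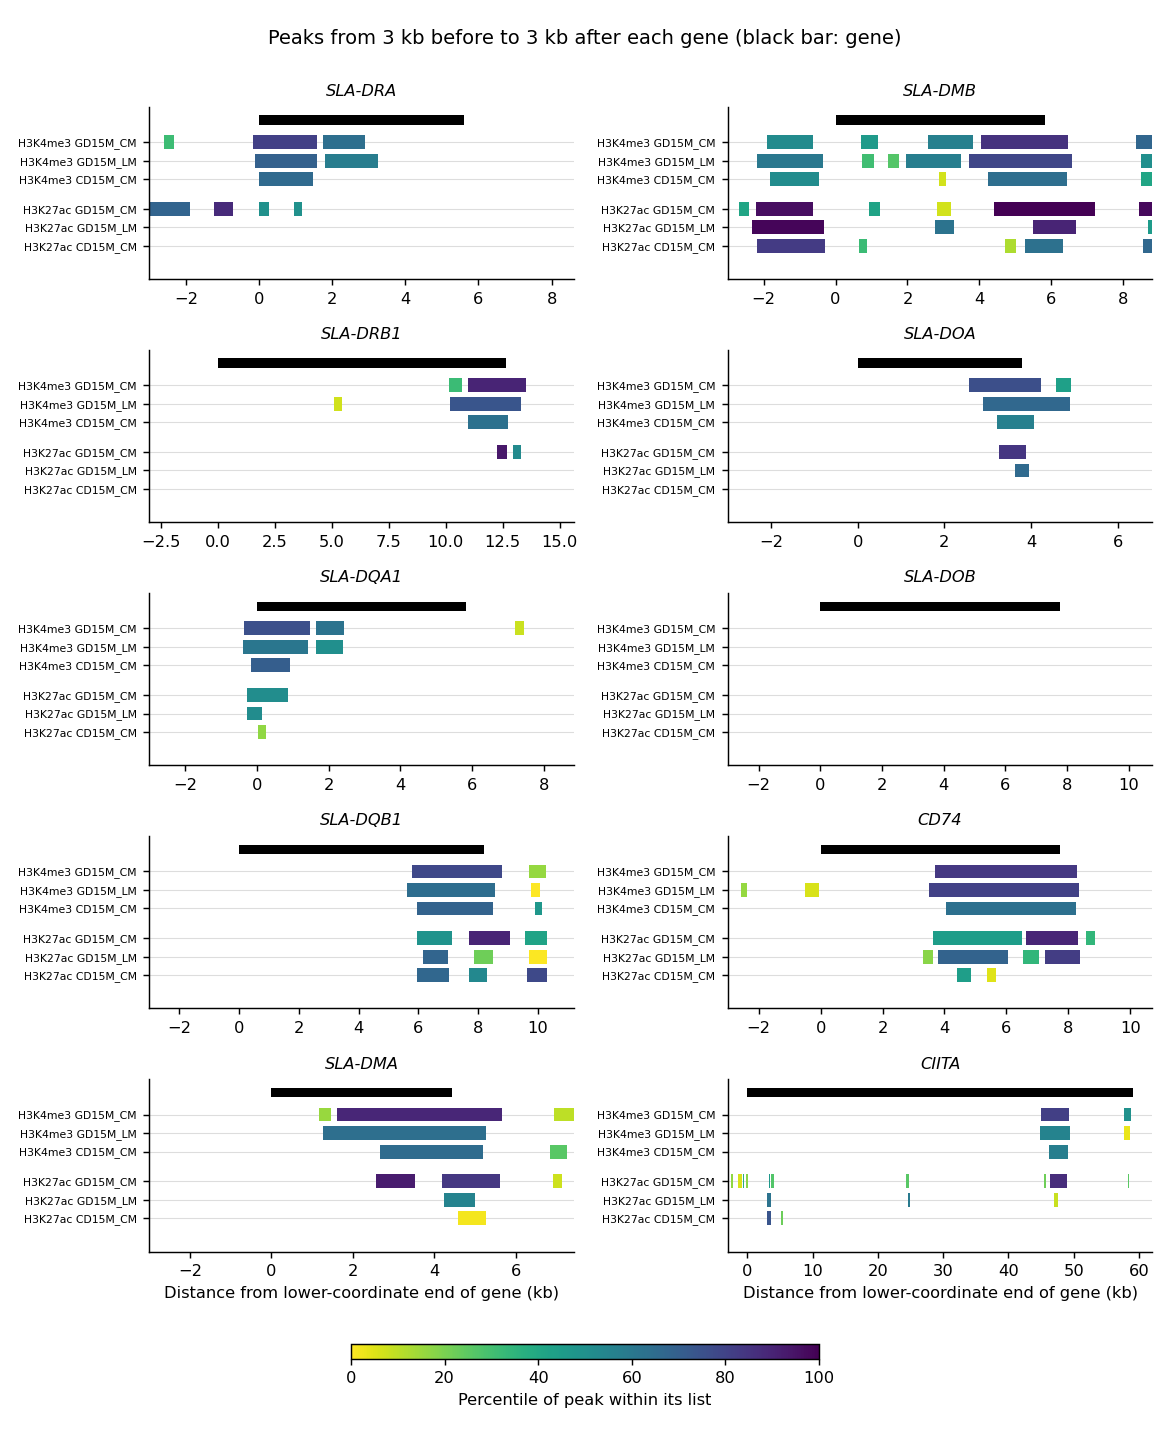
Peaks from 3 kb before to 3 kb after each of the 10 genes, with distance from the lower-coordinate end of the gene in kb on the horizontal axis and the 6 lists as rows; the black bar is the gene and colour gives the percentile of a peak within its list. The strongest H3K4me3 peaks stack at 1 end of each gene except CIITA, where they lie inside it, and the SLA-DOB panel is empty.

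SLA-DMB also had a second H3K27ac site. In GD15M_CM its strongest peak, 2806 bp long, covered the higher-coordinate end, from 25123693 to 25126498 on chromosome 7. In GD15M_LM and CD15M_CM the strongest peak lay beyond the lower-coordinate end, with its centre at -1319 bp and -1245 bp from it, in the stretch between 25116961 and 25118979. At the site that was strongest in GD15M_CM, the H3K27ac fold enrichment was 9.78 there, 6.31 in GD15M_LM and 3.87 in CD15M_CM, at percentiles 99.8, 90.2 and 63.2.

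Looked up in the same way, the strongest H3K27ac site of GD15M_CM held a peak in GD15M_LM for 6 of 9 genes and in CD15M_CM for 3 of 9. The genes with a peak there in CD15M_CM were SLA-DMB, SLA-DQA1 and SLA-DQB1. In the opposite direction, the strongest H3K27ac site of CD15M_CM held a peak in GD15M_CM for 6 of 6 genes, and that of GD15M_LM for 7 of 7. In CD15M_CM none of the 6 strongest H3K27ac peaks covered a gene end, whereas 6 of 9 did in GD15M_CM.

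Both marks met at the strongest class II sites most often in GD15M_CM. The strongest H3K4me3 peak was overlapped by an H3K27ac peak for 9 of 9 genes in GD15M_CM, 7 of 9 in GD15M_LM and 5 of 9 in CD15M_CM. Over all H3K4me3 peaks, the shares were 69.6%, 69.6% and 68.4%. These shares count every peak of a list and not the strongest peak of each gene, so they are not a like baseline. The share for the strongest peaks of all genes was not computed. At SLA-DRA and SLA-DRB1 the H3K4me3 peak stood without H3K27ac in GD15M_LM and CD15M_CM, and at SLA-DOA and CIITA it did so in CD15M_CM. At SLA-DRA in GD15M_CM, H3K27ac overlapped 28.4% of the H3K4me3 peak, and the stronger H3K27ac peak was a separate one outside the gene, with its centre at -965.5 bp from the lower-coordinate end. At CD74 in GD15M_CM the overlap was 97.1% of the H3K4me3 peak, against 82.6% in GD15M_LM and 17.4% in CD15M_CM.

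Counted together, the 10 windows held 23 H3K4me3 peaks in GD15M_CM, 14 in CD15M_CM and 21 in GD15M_LM, with summed lengths of 35761, 22810 and 36959 bp. For H3K27ac they held, in the same order, 33, 14 and 17 peaks, with 27225, 9059 and 13436 bp. The median ratio of covered length between GD15M_CM and CD15M_CM was 1.79 for H3K4me3, beside 0.903 over all genes, and 4.40 for H3K27ac, beside 0.972. Against GD15M_LM it was 1.0 for H3K4me3, beside 0.952, and 1.82 for H3K27ac, beside 1.25.

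Several other genes share ground with these windows. The BRD2 gene model, which encodes a bromodomain protein, spans both SLA-DMB and SLA-DMA. The strongest H3K4me3 peak within the BRD2 span was the SLA-DMA peak in GD15M_CM, whereas in GD15M_LM and CD15M_CM it lay outside the windows of both DM genes. At that other site, from 25149154 to 25157411 in CD15M_CM, the percentile was 81.2 in GD15M_CM, 83.3 in GD15M_LM and 97.1 in CD15M_CM. GD15M_CM thus had the lowest percentile of the 3 types there, though within 10 points of GD15M_LM, and the highest at SLA-DMA and SLA-DMB. DEXI, whose model overlaps the lower-coordinate end of CIITA, had 90.1, 82.4 and 92.1. TCOF1, a nucleolar factor gene next to CD74, had 67.4, 75.4 and 76.9. Both lay within 10 points of their CD15M_CM value in GD15M_CM and were not called, whereas CIITA and CD74 were called higher. LOC106504375, a long noncoding RNA gene that overlaps the SLA-DOA window, shared its strongest peak in GD15M_CM and had 76.1, 66.5 and 64.5, and the pseudogenes SLA-DQB2 and SLA-DYB, in the windows of SLA-DQB1 and SLA-DOB, had no H3K4me3 peak.

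Across the whole stretch from SLA-DRA to SLA-DOA, 357.629 kb, H3K4me3 peaks numbered 48 in GD15M_CM, 41 in GD15M_LM and 34 in CD15M_CM, of which 18, 16 and 12 lay in the windows of the class II genes. H3K27ac peaks numbered 49, 25 and 35, of which 18, 10 and 10 did. The peak with the highest H3K4me3 fold enrichment in GD15M_CM, 21.2, was at none of the 8 SLA genes but at 24990228 to 24992139, next to the pseudogene SLA-DRB5 and 2 uncharacterised genes. Its percentile was 91.4 in GD15M_CM, 83.5 in GD15M_LM and 82.5 in CD15M_CM. It was chosen for its value and is given as a description.

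The factors that act on class II promoters were compared by the same rule. Of 12 genes, all with an H3K4me3 peak, 1 was higher in GD15M_CM than in CD15M_CM and 1 was lower, beside 12.4% and 23.9% over all genes. NFYC, a subunit of NF-Y, was the higher one, with an H3K4me3 percentile of 90.4 in GD15M_CM, 81.3 in GD15M_LM and 73.7 in CD15M_CM. SPI1, the myeloid and B cell factor PU.1, had 65.3, 71.0 and 77.9 and was the lower one. The median difference of the list was 4.38 points, beside 20.5 for the class II set.

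For H3K27ac, 2 of the 12 factors were higher in GD15M_CM than in CD15M_CM and 2 lower, beside 25.5% and 27.4% over all genes. RFXAP, an RFX subunit, had an H3K27ac percentile of 90.6, 66.7 and 78.6 in the order GD15M_CM, GD15M_LM and CD15M_CM, while RFXANK, another, was lower at 57.9, 87.4 and 86.3. IRF8 and IRF4, factors of the interferon regulatory family in myeloid and lymphoid cells, went opposite ways, with 35.0, 0 and 10.8 for IRF8 and 10.5, 15.8 and 33.0 for IRF4. RFX5, the DNA-binding RFX subunit, was within 10 points of CD15M_CM in both marks, with H3K4me3 percentiles of 97.7 in GD15M_CM and 95.5 in CD15M_CM. Against GD15M_LM, 4 of 12 were higher in GD15M_CM for H3K4me3, namely RFX5, RFXAP, NFYA and USF1, and 0 were lower. The shares over all genes were 20.9% higher and 20.2% lower. For H3K27ac 4 were higher and 1 was lower, beside 33.8% and 22.5% over all genes. The median H3K27ac difference of the list was -1.30 points. RFX5 had 97.7 against 70.5 in GD15M_LM for H3K4me3 and 95.5 against 50.3 for H3K27ac.

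Genes for loading and turnover of class II molecules were mixed as well. Of 10 listed, 8 had a placed model. For H3K4me3, CTSS, the protease cathepsin S that trims CD74, was higher in GD15M_CM with a percentile of 56.1 and no peak in CD15M_CM, and CD83, a dendritic cell protein that stabilises class II at the surface, was lower with 56.3 against 76.1. For H3K27ac, CTSD, the protease cathepsin D, had 92.9 against 37.0 and IFI30, a lysosomal thiol reductase, had 86.4 against 67.3. CTSL, the protease cathepsin L, had 22.6 against 52.6, CD83 had 2.8 against 93.5 and AP1M1, an adaptor subunit of vesicle coats, had 39.3 against 82.8.

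Among 10 neighbours in the MHC region, 9 had a peak. For H3K4me3, PSMB9, an immunoproteasome subunit, was higher in GD15M_CM than in CD15M_CM, with 88.2 against 74.0, and RXRB, a retinoid receptor, was lower, with 64.7 against 78.5. For H3K27ac, TAP2, a subunit of the peptide transporter of the class I pathway, was higher with 89.6 against 78.8, as was HSD17B8, a steroid dehydrogenase, with 91.2 against 67.1. The median difference of the neighbours was -1.64 points for H3K4me3 and 8.45 for H3K27ac, beside 20.5 and 45.3 for the class II set. The neighbours are not all separate sites. In GD15M_CM, TAP1 and PSMB9 share their strongest H3K4me3 peak, and the BRD2 value is the SLA-DMA peak.

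**Figure D5:**
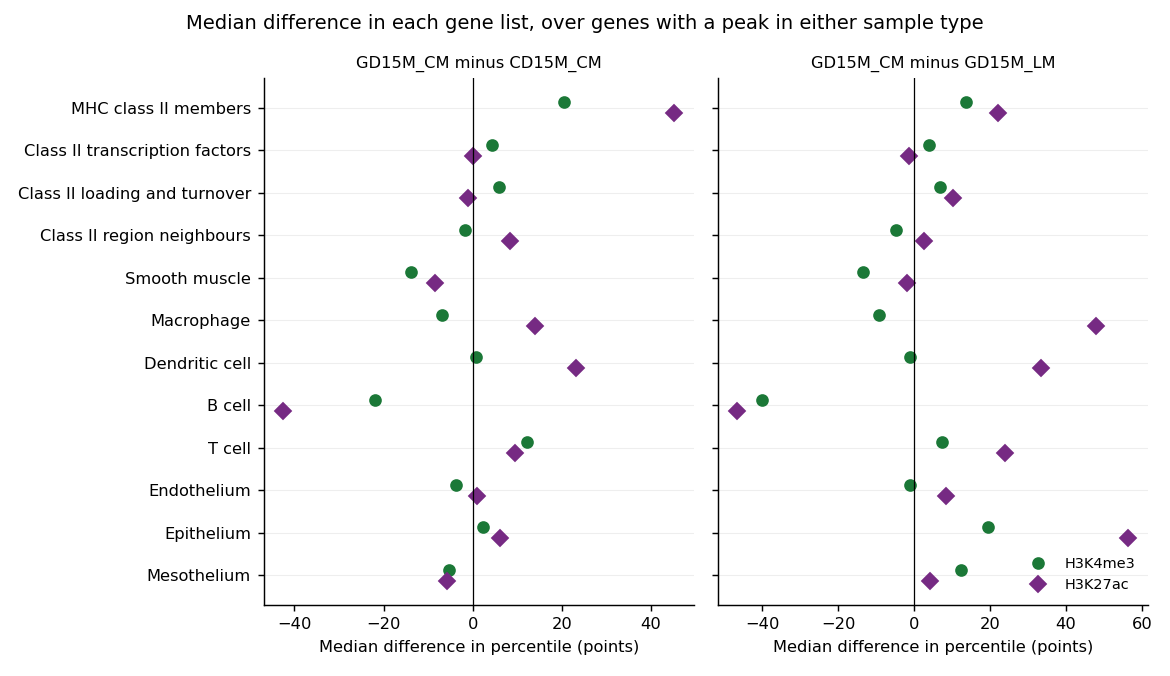
Median difference in percentile (points) of each gene list, over its genes with a peak in either list, between GD15M_CM and CD15M_CM (left) and between GD15M_CM and GD15M_LM (right), for H3K4me3 (circles) and H3K27ac (diamonds). For H3K4me3 the class II genes lie farthest to the right against CD15M_CM, at 20.5, and epithelial markers against GD15M_LM, at 19.6, while B cell markers lie farthest to the left, at -21.8 and -40.1.

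Markers of the cells that the muscle layers could hold were placed beside these values, since whole tissue was used and more class II bearing cells cannot be told apart from more mark per cell. All 8 smooth muscle markers had peaks for both marks in every type. Their summed H3K4me3 fold enrichment was 117 in GD15M_CM, 211 in GD15M_LM and 182 in CD15M_CM, and 5 of 8 were lower and 1 higher in GD15M_CM than in CD15M_CM. The shares over all genes were 23.9% lower and 12.4% higher.

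Some T cell markers moved in the same direction as the class II genes. All 6 placed markers had an H3K4me3 peak in every type, and their summed H3K4me3 fold enrichment was 59.5 in GD15M_CM, 47.5 in GD15M_LM and 40.0 in CD15M_CM. CD3D, CD8A and LCK were higher in GD15M_CM than in CD15M_CM, and 0 of 6 were lower, beside 12.4% and 23.9% over all genes. CD3D, a chain of the T cell receptor complex, had an H3K4me3 percentile of 68.0, 61.7 and 52.6, and LCK, its kinase, had 90.9, 63.2 and 73.2. CD4, the marker of the helper T cells that class II molecules address, went the other way, with 48.8 in GD15M_CM and 57.6 in CD15M_CM for H3K4me3 and 44.9 and 74.6 for H3K27ac. Over the list, 2 markers were higher and 1, CD4, was lower for H3K27ac, beside 25.5% and 27.4% over all genes. CD3E and CD3D had no H3K27ac peak in any type, and the summed H3K27ac fold enrichment of the list was 14.3, 9.94 and 10.9. The part of T cells in the class II values was not tested.

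Markers of antigen-presenting cells did not share 1 direction over both marks. Of all genes, 12.4% were higher and 23.9% lower in GD15M_CM than in CD15M_CM for H3K4me3, and 25.5% and 27.4% for H3K27ac. Of 8 macrophage markers, 0 were higher and 3 lower for H3K4me3 in GD15M_CM than in CD15M_CM, with a summed fold enrichment of 66.0 in GD15M_CM, 79.1 in GD15M_LM and 83.9 in CD15M_CM, while 3 were higher and 1 lower for H3K27ac, with sums of 24.0, 19.3 and 22.1. CD163 had no H3K4me3 peak in GD15M_CM, and CD163, MRC1 and C1QA had no H3K27ac peak in any type. Of 7 dendritic cell markers, 1 was higher and 2 were lower for H3K4me3, with sums of 34.0, 43.8 and 40.0, and 3 were higher and 1 lower for H3K27ac, with sums of 19.4, 12.9 and 17.4. CLEC9A had no peak in any list. Of 5 placed B cell markers, 0 were higher for either mark against CD15M_CM, and MS4A1 had no peak in any list, with H3K4me3 sums of 21.4, 44.6 and 36.1 and H3K27ac sums of 8.71, 12.0 and 11.7. Their part in the class II values was not tested.

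Between the pregnant layers, epithelial markers moved with the class II genes. Of all genes, 20.9% were higher and 20.2% lower in GD15M_CM than in GD15M_LM for H3K4me3, and 33.8% and 22.5% for H3K27ac. Against CD15M_CM these shares were 12.4% and 23.9% for H3K4me3, and 25.5% and 27.4% for H3K27ac. All 6 epithelial markers were higher in GD15M_CM than in GD15M_LM for H3K4me3, with a summed fold enrichment of 88.0 against 44.4, and 5 of 6 for H3K27ac, with 26.4 against 15.9. Against CD15M_CM, 0 of these markers were higher and 1 was lower for H3K4me3, with a median difference of 2.42 points and a sum of 103 in CD15M_CM. For H3K27ac, 2 were higher and 0 lower, with a median difference of 6.18 points and a sum of 23.1 in CD15M_CM. Of 4 placed mesothelial markers 2 were higher in GD15M_CM than in GD15M_LM and 0 lower for H3K4me3, with sums of 50.4 in GD15M_CM, 57.0 in GD15M_LM and 65.3 in CD15M_CM. All 6 endothelial markers had an H3K4me3 peak in every type and none was called higher or lower against CD15M_CM, with sums of 46.5, 64.2 and 57.8. The part of the epithelium in the class II difference between layers was not tested.

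The genes with the most similar profile over the 6 lists were sought by Euclidean distance in percentile points to the median profile of the 9 class II genes with a peak. The 5 nearest protein-coding genes outside the windows were ADCK1 at 9.30, NOL6 at 10.8, SYT13 at 11.4, TRMT10B at 11.8 and TAF1 at 15.0. Each of the 9 class II genes was farther from its own set's median, from 18.7 for SLA-DMA to 77.5 for SLA-DMB. Because the 5 were picked from all genes for being nearest, this order cannot tell whether the set shares a profile. ADCK1 had H3K4me3 percentiles of 78.7, 65.1 and 72.6 and H3K27ac percentiles of 92.1, 61.6 and 17.1 in the order GD15M_CM, GD15M_LM and CD15M_CM.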

How the data were processed

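Peaks of H3K4me3 and H3K27ac were analysed in 3 sample types of day 15 pig myometrium with 2 gilts each, grouped by their labels. The authors mapped reads to Sus scrofa 11.1 with BWA 0.7.17-r1188, removed duplicates and reads with a mapping quality below 25 with SAMtools 1.9 and Picard 2.8.3, pooled both gilts and called peaks against IgG with MACS2 2.2.6. The fold enrichment in the deposited lists is a ratio over IgG whose scaling is not given in the sources used here. The deposited column 5 holds −log10 p, as read from its order and values, since its header was a spreadsheet error. Peak start, end and length were used as given. The deposited lists hold no counts, so read depth is unknown from them and no interval was computed.

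Gene positions came from RefSeq on Sscrofa11.1, an assembly of a Duroc pig, without strand. Peaks overlapping a gene or 3 kb on either side by at least 1 bp were assigned to it, and percentiles were computed within each list with Python 3.11.15, pandas 2.3.3 and NumPy 2.4.6. Figures were drawn with Matplotlib 3.10.9. The overlap code was tested on simulated data. Pooling left 1 list per mark and type, so no test was run. The alternatives were a stricter threshold, joined peaks, a 1 kb window, 50% overlap, ranking by −log10 p and equal numbers of top peaks. The genes named were the listed genes, genes overlapping their windows, list genes past 10 points between GD15M_CM and CD15M_CM, and the 5 nearest profiles, with further marker genes and 1 peak named after their values were seen. The genes and lists were chosen with earlier results of these data known. Promoter sequence and strand were not used here. A further gene of the factor list is not reported here.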

Additional observations from a re-analysis of the deposited data

How the results depend on the processing

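Of the 36 differences of class II genes between lists, 28 were of at least 10 points, and each of these 28 kept its sign under 5 of the 6 alternatives that change peaks, window or ranking. Under the stricter peak threshold 25 kept it and 3 fell to 0, with no peak left in either list: H3K27ac at SLA-DQA1 against CD15M_CM and at SLA-DOA against both. No paired analysis was possible because the authors pooled both gilts of a type before calling peaks, so no list belongs to 1 gilt; for the same reason no gilt could be left out. When peaks below a −log10 p of 10 or below a fold enrichment of 5 were dropped, the class II genes with an H3K27ac peak numbered 2 in GD15M_LM and 0 in CD15M_CM, and those called higher in GD15M_CM for H3K27ac numbered 5 against CD15M_CM and 3 against GD15M_LM. Ranked by −log10 p, 2 were called higher than GD15M_LM for H3K4me3. For H3K27ac against GD15M_LM, 1 was lower with equal numbers of top peaks and 1 when any difference above 0 counted. The other counts stayed within 1.5 times the reported ones. The window around the gene start was not run, since strand was not used here. The cause of these shifts was not tested. Pooled lists give no error between gilts, a missing peak is only a signal below the caller's threshold, and reads shared by near-identical SLA copies, or by alleles far from the Duroc reference, may be lost.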
